A study of Saccharomyces cerevisiae with 6 samples.

Results

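XUTs (Xrn1-sensitive unstable transcripts) were followed in aerial and root cells of yeast colony biofilms. The members were all lines of the count table whose locus name begins with XUT. When merging noncoding annotations, the authors gave some sources priority over others and deleted duplicates. By the order in which the paper cites its sources, that of the XUTs appears to be among those without priority. The members are thus the XUTs kept in that merge and may not be the whole class, and a duplicated locus counts under the name kept. They were 837 of 10239 named loci, and each of the 837 names occurred once. Other types of long noncoding RNA (lncRNA) in the table were 1066 SUT lines (stable unannotated transcripts), 604 MUT lines (meiotic transcripts) and 538 CUT lines (cryptic unstable transcripts). Each type was taken by the start of its name only. A further 636 lines had neither these names nor that of a coding gene, and are called other lncRNA lines here. All libraries came from BR-F, a wild diploid Saccharomyces cerevisiae strain with no added mutation or treatment. Its colonies had grown for 3 days at 28 °C on a membrane over soft agar with 3% glycerol, 1% yeast extract and 0.3% agar. Aerial cells were those above the membrane and root cells those that had grown through it into the agar, with 3 strand-specific libraries of rRNA-depleted total RNA for each. Aerial cells were frozen directly, whereas root cells, with the agar around them, were first vortexed and centrifuged, so position and handling cannot be told apart. Nor can fewer cells with a transcript and less of it per cell be told apart in such bulk samples.

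XUTs are made by RNA polymerase II, capped and polyadenylated, and exported to the cytoplasm, where the exonuclease Xrn1 degrades them from the 5′ end. They were defined as transcripts that build up when Xrn1 is lost, and many of them run antisense to protein-coding genes. A wild-type cell, in which Xrn1 is present, therefore holds what remains after this decay. The name of each XUT gives its chromosome, its strand (F or R) and a number. For example, XUT_4F-194 lies on strand F of chromosome IV. The R64 annotation places 1 XUT, XUT_2F-154, on chromosome II from 376610 to 378633 on the plus strand, and this XUT is not among the 837 analysed here. Start, end and neighbouring genes of the members were not used here, and no sequence of them is shown.

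The libraries held 13764726 to 17095539 counts on named loci. Of 6 genes used to check the labels, 5 differed between the cell types and VMA1 did not pass the test (log2 fold change 0.49, edgeR adjusted p = 0.168). RGI2 lay at 1622 to 2983 CPM (counts per 1e6 of the TMM-normalised library size) in aerial and 228.9 to 438.3 CPM in root libraries, and ARG1 at 165.8 to 261.3 and 1600 to 2316 CPM. Of the 837 XUTs, 797 to 820 had at least 1 count in a library and 746 (89.1%) had a count in every library. No XUT was at 0 in all libraries, 4 were at 0 in all aerial libraries and 7 in all root libraries, and none of these 11 had more than 2 counts elsewhere. The median XUT had 14 to 19 counts per library, so that most single XUTs were measured on few reads.

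In their XUTs, aerial libraries stood farther apart than root libraries. Over the 573 XUTs that passed the filter on low counts, differences in log2 CPM, as root mean squares, were 0.443 to 0.469 between root libraries and 0.666 to 0.813 between aerial libraries. Aerial replicates 1 and 2 (0.813) were as far from each other as aerial and root libraries were (0.799 to 0.904). The chi-square of the XUT counts per degree of freedom was 1.52 to 1.90 for pairs of root libraries and 3.36 to 6.33 for pairs of aerial libraries. The SD of log2 CPM over the 3 libraries was larger in aerial than in root cells for 416 of the 573 XUTs (72.6%), with medians of 0.387 and 0.254. These spreads were not computed over all loci, so whether the wider aerial spread is particular to XUTs was not tested.

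The XUTs kept in the table together took nearly the same small part of the reads in both cell types. Their share of all counts was 0.251%, 0.269% and 0.313% in aerial replicates 1, 2 and 3 and 0.247%, 0.248% and 0.261% in root replicates 1, 2 and 3. The groups overlapped, with 0.278% ± 0.0322 (SD, n = 3) in aerial and 0.252% ± 0.00797 in root libraries (p = 0.200, exact permutation test, two-sided). The smallest p this design allows is 0.1. The difference of -0.0255 percentage points became -0.00761 without aerial replicate 3. The mitochondrial share, 0.358% to 1.05%, also varied between aerial libraries. So did the share of all lines without a coding-gene name, 2.52% to 8.18%. Most of the latter lay in the other lncRNA lines, since in aerial replicate 1, with 8.18%, XUTs held 0.251% and SUTs 0.413%. The part of these shares in the XUT share was not tested.

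Set against other lncRNA types, there were fewer XUT counts per CUT count and more per MUT count in every root library than in any aerial library, whereas the ratio to SUTs overlapped. CUTs are cleared by the nuclear exosome, MUTs were found in meiotic cells, and SUTs are the more stable class. There were 4.76, 5.80 and 5.40 XUT counts for each CUT count in aerial replicates 1, 2 and 3, against 4.27, 4.62 and 4.20 in the root libraries. Every aerial library was above every root library, with a difference of -0.28 (root minus aerial) in the log2 ratio (exact permutation test, two-sided, p = 0.1, adjusted p = 0.150 over the 3 ratios). The ratio to MUT counts was 4.20, 3.60 and 3.23 in aerial and 5.74, 6.54 and 5.77 in root libraries. Here every root library was above every aerial library, by 0.72 in the log2 ratio (exact permutation test, p = 0.1, adjusted p = 0.150). The ratio to SUT counts was 0.607 to 0.670 in aerial and 0.610 to 0.640 in root libraries and overlapped, with a log2 difference of -0.05 (exact permutation test, p = 0.400).

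**Figure D1:**
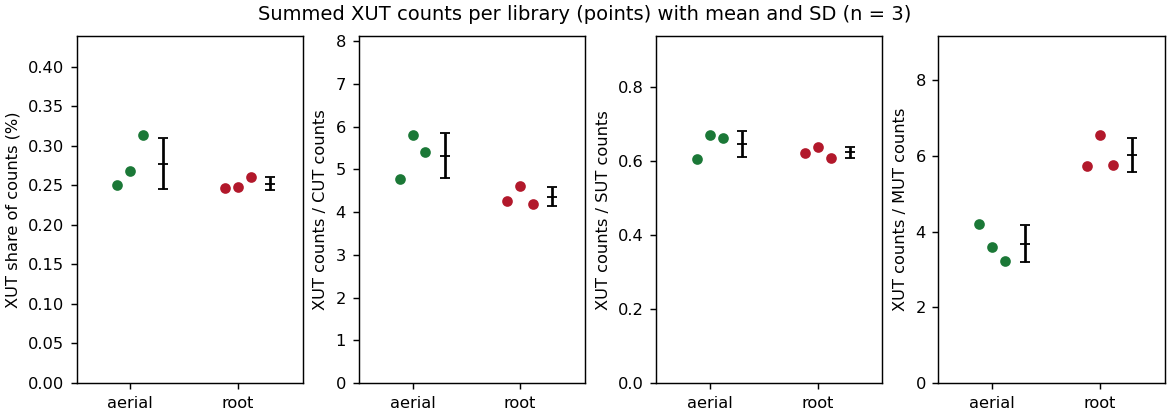
XUT share of all counts in percent, and summed XUT counts divided by CUT, SUT and MUT counts, in each aerial and root library (points), with the mean and SD of 3 libraries beside them. The ratio to CUTs is higher in all aerial libraries (4.76 to 5.80 against 4.20 to 4.62), the ratio to MUTs is higher in all root libraries (5.74 to 6.54 against 3.23 to 4.20), and the share and the ratio to SUTs overlap.

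Single XUTs moved in both directions and nearly balanced. Log2 fold changes are given as root over aerial, and values below 0 mean more RNA in aerial cells. The median over the 573 XUTs tested was 0.02, with 294 XUTs above 0 and 279 below, against a median of -0.03 over all 7971 loci tested. The middle 50% of the XUTs lay between -0.42 and 0.45, and 343 XUTs (59.9%) differed by less than 1.5-fold. The sign of a median this close to 0 was not fixed, and it was -0.05 with upper quartile normalization and -0.01 with library sizes alone. The median was 0.24 over 227 CUTs, -0.04 over 732 SUTs and -0.77 over 222 MUTs. MUTs were higher in aerial cells at 84.2% of their loci, XUTs at 48.7%. The 344 other lncRNA lines tested were like the XUTs, with a median of 0.02 and 48.8% higher in aerial cells.

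**Figure D2:**
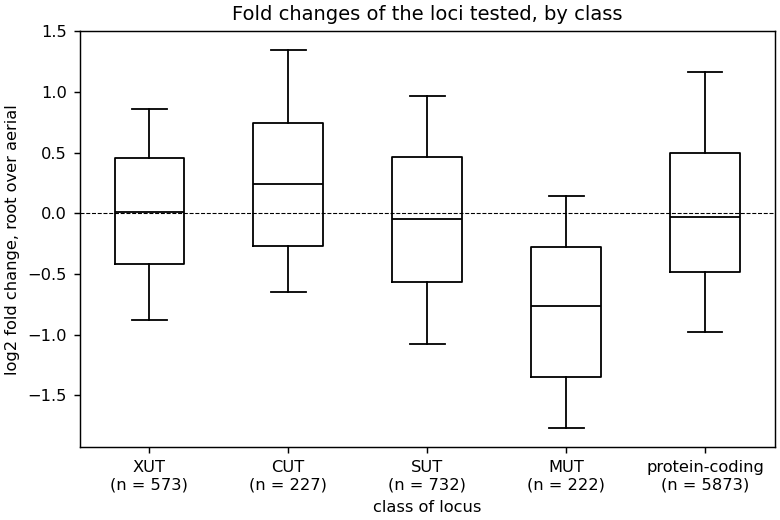
Log2 fold change (root over aerial) of the loci tested in each class. The line is the median, the box the middle 50% and the whiskers the 10th and 90th percentiles. XUTs are centred at 0.02 and MUTs at -0.77, while CUTs lie at 0.24.

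A locus was called changed where edgeR's quasi-likelihood test gave an adjusted p under 0.05 over all 7971 loci and the change was at least 2-fold. Of the XUTs tested, 74 were called (12.9%), beside 20.0% of all loci tested, 12.8% of the CUTs, 17.9% of the SUTs and 33.3% of the MUTs. In aerial cells 42 XUTs were higher (7.33%, against 9.20% of all loci tested) and in root cells 32 (5.58%, against 10.8%). Among CUTs 5 of the calls (2.20% of those tested) were for aerial and 24 (10.6%) for root cells, and among MUTs 70 (31.5%) and 4 (1.80%). These are shares of loci that differ in depth, with a median of 30.8 mean counts per XUT and 574 over all loci tested, and no test was made between them. All of the 74 XUTs called had CPM that did not overlap between the cell types, and 209 of the 573 tested (36.5%) did not overlap, beside 48.5% of all loci.

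The number of calls moved with the libraries in the fit. The count of 74 became 90 without aerial replicate 1, 92 without aerial replicate 2 and 50 without aerial replicate 3. It became 39 without root replicate 1, 48 without root replicate 2 and 42 without root replicate 3. The 32 XUTs higher in root cells became 49 without aerial replicate 1, 18 without root replicate 1 and 17 without root replicate 3. The 42 higher in aerial cells became 26 without aerial replicate 3, 21 without root replicate 1, 23 without root replicate 2 and 25 without root replicate 3. All 74 kept their direction in each of the 6 fits without a library, which their lack of overlap made nearly certain beforehand. Of them 32 (18 higher in aerial and 14 in root cells) were called in all 6. Adjusted p-values alone placed 97 XUTs past the threshold (16.9%, beside 31.6% of all loci), and 150 had an unadjusted p under 0.05 (26.2%, beside 43.1%). Of the 97 past the adjusted threshold, the 23 that changed less than 2-fold were 14 higher in aerial and 9 higher in root cells. A further 11 XUTs changed at least 2-fold without passing the adjusted p.

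**Figure D3:**
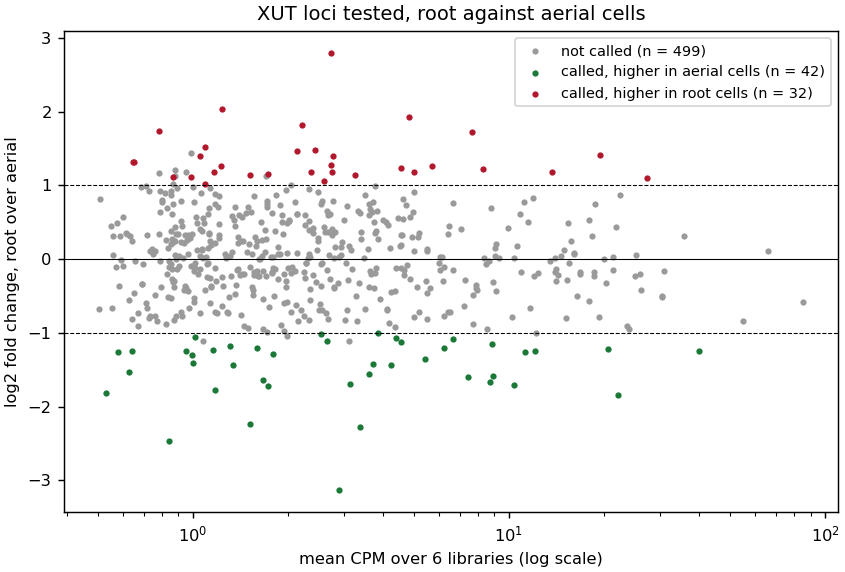
Log2 fold change (root over aerial) of the 573 XUTs tested against their mean CPM over the 6 libraries (log scale). Dashed lines mark a 2-fold change. The 42 XUTs called higher in aerial and the 32 called higher in root cells are spread over low and higher CPM.

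Called XUTs were found at low and high counts. Of 189 XUTs with a mean under 20 counts, 22 were called (11.6%, 11 in each direction). Of 286 with 20 to 100 counts 36 were called (12.6%, 20 aerial and 16 root). Of 98 with at least 100 counts 16 were called (16.3%, 11 aerial and 5 root). Over all loci tested 20.0% were called, and their share at matched counts was not computed. The median standard error fell from 0.41 to 0.31 and 0.23 on the log2 scale over these groups. The other 264 of the 837 XUTs failed the filter. They had at most 21 counts in any library and 2.85% of all XUT counts, and a change in them was not tested. The filter keeps a locus that is high enough in 3 libraries, so a XUT may have passed through the cell type in which it was high. Among the XUTs named below this concerns those with few counts in the other cell type, such as XUT_10F-200, XUT_4F-253 and XUT_14R-205.

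The change furthest from 0 among the XUTs was that of XUT_8R-199, on chromosome VIII. It stood at 4.59, 5.21 and 5.87 CPM in aerial replicates 1, 2 and 3 and at 0.729, 0.476 and 0.575 CPM in root replicates 1, 2 and 3. All aerial libraries were far above all root libraries, which held 8 to 11 counts each. Aerial cells held 8.75 times the root level, or -3.13 on the log2 scale (standard error 0.29, edgeR adjusted p = 0.000473), and the adjusted p stayed at or below 0.00529 when any library was left out.

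XUT_10F-200 had 16, 27 and 24 counts in aerial and 2, 3 and 7 counts in root libraries. In CPM these were 1.33, 1.45 and 1.51 in aerial and 0.133, 0.179 and 0.447 in root libraries. The aerial libraries were close together, while the root counts were too few to read a spread from. The change was -2.47 on the log2 scale (standard error 0.44, edgeR adjusted p = 0.00403). XUT_7R-35 lay at 7.43, 2.68 and 6.69 CPM in aerial and 1.26, 0.715 and 1.47 CPM in root libraries. Aerial replicate 2 was low among the aerial libraries but still above each root library, and the log2 fold change was -2.27 (standard error 0.44, adjusted p = 0.00590).

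XUT_2R-114, on chromosome II, was the best covered of the 10 XUTs with the greatest changes towards aerial cells. It held 305, 730 and 623 counts in aerial and 135, 181 and 145 counts in root libraries. As CPM this was 25.4, 39.2 and 39.3 against 8.95, 10.8 and 9.26, with aerial replicate 1 the lowest aerial library. It was 3.59-fold higher in aerial cells (log2 fold change -1.84, standard error 0.23, edgeR adjusted p = 0.00113).

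Chromosome XII held 3 of these 10 XUTs, all on strand R. XUT_12R-5 stood at 3.25, 2.09 and 2.21 CPM in aerial and 0.597, 0.596 and 0.383 CPM in root libraries (log2 fold change -2.23). XUT_12R-7 stood at 3.17, 2.20 and 2.65 CPM against 0.729, 0.834 and 0.831 CPM (-1.72). In both, aerial replicate 1 was the highest library and the root libraries lay close together. XUT_12R-304 went from 21.4, 10.2 and 16.2 CPM in aerial to 5.70, 4.82 and 4.09 CPM in root libraries (-1.71), again with aerial replicate 2 as the lowest aerial library. Their standard errors were 0.35, 0.29 and 0.30 and their edgeR adjusted p-values 0.00226, 0.00331 and 0.00385.

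The remaining members of this group were XUT_11F-136 (3.24-fold higher in aerial cells), XUT_4R-491 (3.44-fold) and XUT_4F-253 (3.50-fold). XUT_11F-136 was at 5.17, 5.37 and 3.85 CPM in aerial and 1.86, 1.43 and 1.15 CPM in root libraries. XUT_4R-491 was at 2.09, 1.77 and 1.64 CPM in aerial and 0.663, 0.715 and 0.192 CPM in root libraries, where replicate 3 held 3 counts. XUT_4F-253 rested on 12, 13 and 13 counts in aerial and 2, 6 and 3 counts in root libraries. Its edgeR adjusted p of 0.0173 rose to 0.0803 without root replicate 1 and 0.0827 without root replicate 3.

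Among XUTs higher in root cells XUT_4F-194, on chromosome IV, stood first. Its aerial libraries held 1.08, 0.644 and 0.379 CPM and its root libraries 5.04, 4.70 and 4.54 CPM. The root libraries were nearly equal, while the aerial libraries, with 6 to 13 counts, spread widely below them. This was a log2 fold change of 2.79 (edgeR adjusted p = 0.00113, standard error 0.35), and the adjusted p was at most 0.00796 in the fits without 1 library. XUT_5R-26 was at 0.334, 0.751 and 0.316 CPM in aerial and 1.92, 1.55 and 2.56 CPM in root libraries, with a change of 2.03 on the log2 scale (standard error 0.41, edgeR adjusted p = 0.00699). These 2 XUTs alone among the 32 rose at least 4-fold in root cells, as 4 of the 42 did in aerial cells.

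Chromosome IV held 4 of the 10 XUTs with the greatest changes towards root cells, of 73 XUTs tested there. Apart from XUT_4F-194 these were XUT_4R-303, XUT_4R-468 and XUT_4F-43. XUT_4R-303 rose from 2.59, 1.56 and 1.96 CPM to 8.62, 7.14 and 7.22 CPM (log2 fold change 1.93, standard error 0.26, edgeR adjusted p = 0.00140). XUT_4R-468, with 128 to 480 counts per library, rose from 10.7, 11.1 and 9.98 CPM to 26.7, 28.6 and 29.4 CPM (1.41, standard error 0.18, adjusted p = 0.00119). Its libraries agreed closely within each cell type, at 10.6 ± 0.573 (SD, n = 3) and 28.2 ± 1.38 CPM. XUT_4F-43 rose from 1.25, 1.07 and 1.07 CPM to 3.45, 2.50 and 3.45 CPM (1.47, standard error 0.28, adjusted p = 0.00518).

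XUT_9F-213 had the most even root libraries of this group, at 3.45, 3.39 and 3.51 CPM, above 0.918, 0.805 and 1.20 CPM in aerial libraries (log2 fold change 1.82, standard error 0.27). XUT_13F-98 rose from 4.92, 2.90 and 2.90 to 8.88, 12.6 and 13.7 CPM (1.73, standard error 0.29). XUT_14R-205 rose from 0.167, 0.483 and 0.379 to 1.26, 1.13 and 1.28 CPM (1.74, standard error 0.40), with only 2 counts in aerial replicate 1. Their edgeR adjusted p-values were 0.00201, 0.00332 and 0.0111, and these calls held without any single library.

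The other 2 of the 10 were less certain. XUT_7R-365 was at 2.17, 1.02 and 0.758 CPM in aerial and 4.04, 3.10 and 3.51 CPM in root libraries (log2 fold change 1.47, standard error 0.38, edgeR adjusted p = 0.0186). Its adjusted p rose to 0.0645 without aerial replicate 3, 0.0734 without root replicate 1 and 0.0513 without root replicate 3. XUT_16F-332 was at 0.751, 0.161 and 0.821 CPM in aerial and 1.99, 1.43 and 1.41 CPM in root libraries (1.52, standard error 0.49, adjusted p = 0.0435). It rested on 3 counts in aerial replicate 2, and its adjusted p passed 0.05 without aerial replicate 3 (0.0567) and without root replicate 1 (0.147), 2 (0.0919) or 3 (0.0878), with upper quartile normalization (0.0700) and with TMM factors from protein-coding loci (0.0510).

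**Figure D4:**
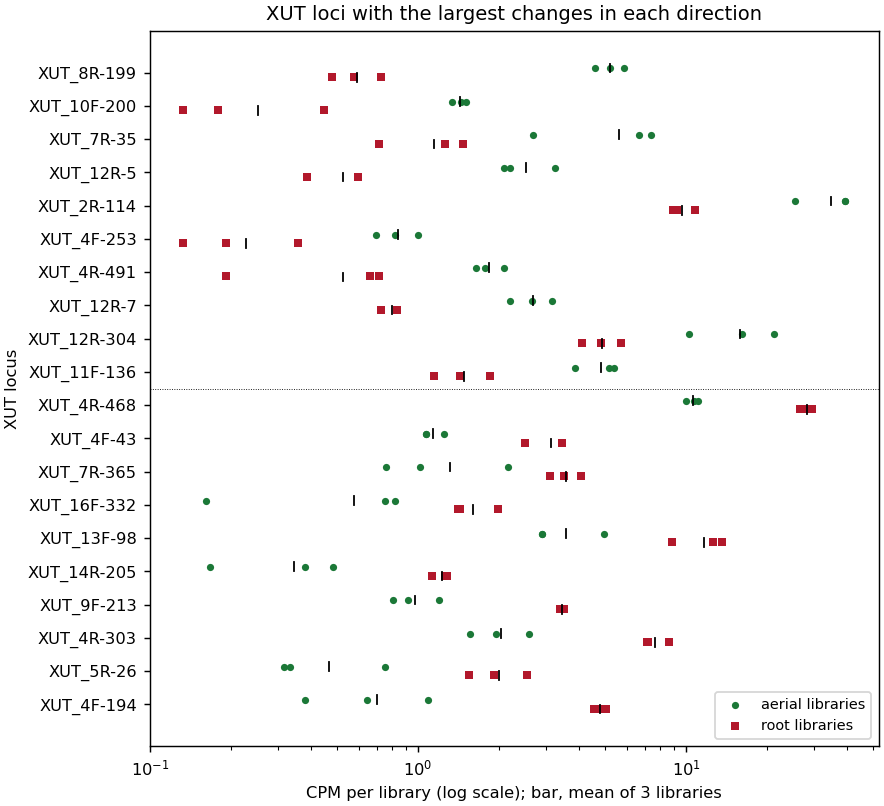
CPM in each aerial (circles) and root (squares) library of the 10 XUTs with the greatest changes in each direction, on a log scale, with the mean of 3 libraries as a bar. The upper 10 are higher in aerial and the lower 10 higher in root cells, and the rows were picked among called XUTs without overlapping libraries.

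Most other calls were smaller. Of the 42 XUTs higher in aerial cells 28, and of the 32 higher in root cells 26, changed between 2- and 3-fold, and the median log2 fold changes of the called XUTs were -1.33 and 1.26. At the edge of the 2-fold cutoff lay XUT_16F-47 (-1.01) and XUT_14F-310 (-1.02) just inside and XUT_8R-217 (-0.999) and XUT_2F-141 (-0.95) just outside on the aerial side. On the root side XUT_12F-257 (1.02) and XUT_2F-170 (1.06) lay just inside and XUT_15F-238 (0.98) and XUT_12R-229 (0.95) just outside. XUT_13R-228, picked out after its values were seen, was the only XUT called with all libraries (edgeR adjusted p = 0.0456) that was called in 0 of the 6 fits without a library.

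The 5 XUTs with the highest CPM, a value that also grows with the length of a locus, held 10.7% of all XUT counts, and 1 of them was called. XUT_8R-129 was at 64.1, 54.4 and 50.0 CPM in aerial and 21.7, 23.6 and 25.8 CPM in root libraries, which differ by -1.25 on the log2 scale (standard error 0.18, edgeR adjusted p = 0.00171). XUT_11F-281 also had no overlap, at 74.6, 65.8 and 72.2 against 38.2, 38.0 and 42.5 CPM. Its change of -0.84 (standard error 0.16, adjusted p = 0.00518) passed the adjusted p but not the 2-fold cutoff.

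The other 3 varied more between aerial libraries than between the cell types. XUT_16R-425 was at 144, 69.4 and 92.8 CPM in aerial and 56.7, 74.2 and 73.3 CPM in root libraries (log2 fold change -0.58, standard error 0.27, edgeR adjusted p = 0.128). Aerial replicate 2 was below 2 of the root libraries, and without it the adjusted p was 0.0201. XUT_15R-430 was at 27.0, 92.4 and 71.4 CPM in aerial and 62.4, 79.8 and 64.3 CPM in root libraries. Aerial replicate 1 stood alone at the bottom, and the value of 0.11 (standard error 0.37, adjusted p = 0.846) turned to -0.25 without it. XUT_5F-7 was at 41.0, 29.7 and 25.4 against 38.0, 38.2 and 42.7 CPM (0.31, standard error 0.21, adjusted p = 0.293), and its adjusted p was 0.0394 without aerial replicate 1.

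XUTs were spread over all 16 nuclear chromosomes, from 16 on chromosome III to 110 on chromosome IV, or 4.92 per 100 kb on chromosome XII to 8.80 on chromosome XIV. Strands F and R held 422 and 415 of them. Of 291 XUTs tested on strand F, 39 were called (13.4%), 18 higher in root and 21 in aerial cells. Of 282 on strand R, 35 were called (12.4%), 14 and 21 in these directions. Over all loci tested the share called was 20.0%.

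The number in the name appears to follow the chromosome, since the highest number divided by the chromosome length in R64 was 0.426 to 0.484 per kb on 15 chromosomes and 0.365 per kb on chromosome XII. Distances could not be read from it. XUTs of the same strand whose numbers were 1 or 2 apart had similar fold changes. Over 66 such pairs 43 (65.2%) had the same sign, the median difference between partners was 0.42 on the log2 scale, and Pearson's r was 0.479. For 82 pairs that were 3 to 5 apart the same sign was found in 46.3% and r was -0.215. For 5648 pairs more than 20 apart these values were 49.3% and -0.0154. On opposite strands, 74 pairs 0 to 2 apart had the same sign in 55.4%, with a median difference of 0.75 and r of -0.0681. For 99 opposite-strand pairs that were 3 to 5 apart the same sign was found in 58.6% and r was 0.189. These values describe loci that share the same 6 libraries, and some XUTs enter several pairs. How reads that reach into a neighbouring locus of the same strand were counted is not given in the sources used here, so that shared reads and shared changes cannot be told apart.

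Among called XUTs there were 5 pairs of the same strand with numbers at most 5 apart, and both partners moved the same way in all 5. These pairs were not stable, since both partners were called in only 1 of the 5 without aerial replicate 1, aerial replicate 3, root replicate 1 or root replicate 3, in 2 without root replicate 2 and in 4 without aerial replicate 2. XUT_12R-5 and XUT_12R-7 were the only pair with both partners called in each of these 6 fits. XUT_2F-145 and XUT_2F-146 were both higher in root cells, with log2 fold changes of 1.10 and 1.16. XUT_12R-5 with XUT_12R-7, XUT_12R-304 with XUT_12R-306 (-1.71 and -1.24), XUT_14F-97 with XUT_14F-99 (-1.06 and -1.60) and XUT_15R-293 with XUT_15R-294 (-1.06 and -1.54) were all higher in aerial cells. On opposite strands 3 of 4 such pairs moved apart, but both partners were called in 0 of the 4 without root replicate 1 or root replicate 3, in 1 without aerial replicate 3, in 2 without aerial replicate 2 and in 3 without aerial replicate 1 or root replicate 2. XUT_12F-6, whose number falls between those of XUT_12R-5 and XUT_12R-7, was at 1.84, 0.966 and 1.58 CPM in aerial and 3.65, 2.38 and 3.77 CPM in root libraries (log2 fold change 1.18, standard error 0.33, edgeR adjusted p = 0.0253), while both R-strand partners were lower in root cells. XUT_5F-21 (-1.12) and XUT_5R-26 (2.03) also went opposite ways, whereas XUT_11F-136 (-1.70) and XUT_11R-139 (-1.44) were both higher in aerial cells.

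**Figure D5:**
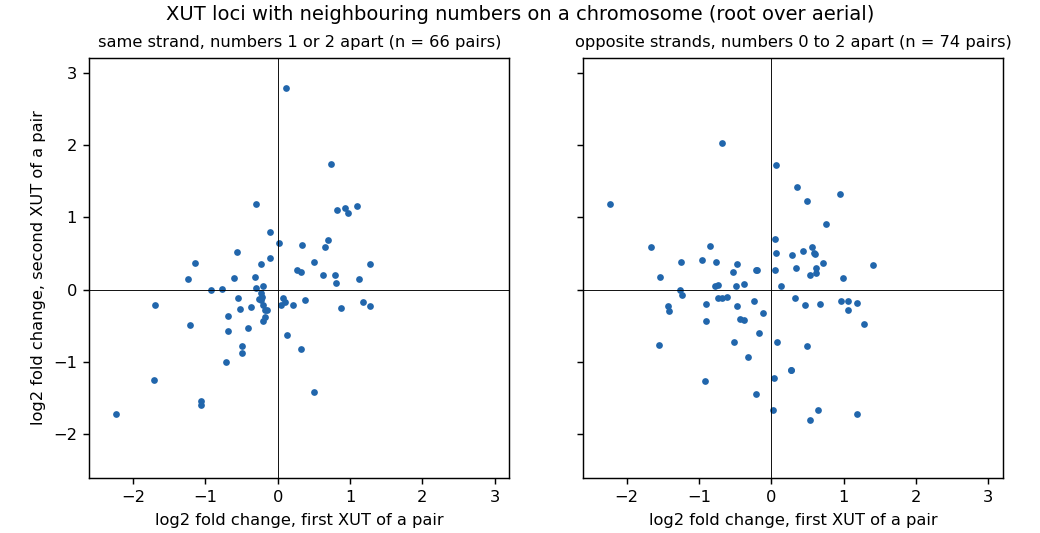
Log2 fold changes (root over aerial) of both XUTs of a pair with neighbouring numbers on a chromosome, on the same strand with numbers 1 or 2 apart (66 pairs, r = 0.479) and on opposite strands with numbers 0 to 2 apart (74 pairs, r = -0.0681). The pairs on the same strand have the same sign in 65.2%, those on opposite strands in 55.4%.

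XRN1 itself, the gene of the exonuclease that names the class (YGL173C, chromosome VII, 175527 to 180113), was not called. It was at 610, 589 and 451 CPM in aerial and 397.5, 483 and 429.9 CPM in root libraries, which overlapped. The log2 fold change was -0.33 (standard error 0.21, edgeR adjusted p = 0.260), and its adjusted p was 0.116 to 0.545 in the 16 other fits. A list of 71 genes of RNA decay and of chromatin factors that restrain antisense transcription was looked up by symbol, and all 71 were tested. Of these, 8 were called (11.3%, beside 20.0% of all loci tested), all 8 higher in root cells, where 10.8% of all loci were called. The median log2 fold change of the list was 0.15. The count of 8 became 15 without aerial replicate 2 and 4 without aerial replicate 3.

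The genes of 5′ to 3′ decay, the cytoplasmic route through which XUTs are lost, did not pass the test. These are RNA levels, and decay itself was not measured. Of 17 genes of 5′ to 3′ decay, among them the decapping enzyme DCP2 and the LSM1 to LSM7 ring that promotes decapping, edgeR called 0 and DESeq2 called 0, and 0 had an unadjusted p below 0.05 in edgeR (43.1% of all loci did). Their log2 fold changes ran from -0.53 to 0.43 with a median of -0.06. The 3 factors of nonsense-mediated decay, a quality control that sends RNAs to Xrn1, lay at 0.04 to 0.15. Among 11 deadenylation genes PAN2 (log2 fold change -0.88, adjusted p = 0.00706) and PAN3 (-0.65, adjusted p = 0.0156), the subunits of a poly(A) nuclease, passed the adjusted p in favour of aerial cells but not the 2-fold cutoff. Without root replicate 3 the edgeR adjusted p was 0.0525 for PAN2 and 0.117 for PAN3. For PAN3 it was 0.0907 without root replicate 1.

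Of the 8 genes called, 7 belong to nuclear decay or the exosome, the machinery that clears CUTs and trims ribosomal RNA precursors. Of 12 genes of nuclear decay and termination, 4 were called (33.3%, beside 20.0% of all loci tested), namely RAI1, RRP6, MTR4 and AIR1, and the median was 0.67. Of 14 exosome core and Ski genes 3 were called (21.4%, beside the same 20.0%), namely DIS3, RRP40 and RRP42, and the median was 0.95. The 20.0% counts both directions, whereas all 7 calls were towards root cells, where 10.8% of all loci were called. At an adjusted p alone 7 of the 12 and 9 of the 14 passed, all higher in root cells. Over all loci 31.6% passed it in both directions together. Members of the cytoplasmic Ski group among these 14 did not pass the test. SKI7 was at -0.55 (edgeR adjusted p = 0.0663). Its edgeR adjusted p was 0.0309 with upper quartile normalization, 0.0494 with TMM factors from protein-coding loci and 0.0185 without aerial replicate 1. SKI2 and SKI8 were at 0.02 each, a value that turned below 0 with upper quartile normalization. RRP6, the nuclear exonuclease of the exosome, was at 118, 171 and 85.2 CPM in aerial and 246.5, 279 and 257.5 CPM in root libraries (log2 fold change 1.07, standard error 0.26, edgeR adjusted p = 0.0144). MTR4, the helicase that feeds RNA to the exosome, had a log2 fold change of 1.32 (adjusted p = 0.0219), but its adjusted p was 0.0505 to 0.0589 when any library other than aerial replicate 2 was left out.

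RRP42, a ring subunit of the exosome, was at 37.8, 31.0 and 34.5 CPM in aerial and 92.2, 84.4 and 77.4 CPM in root libraries (log2 fold change 1.30, standard error 0.17, edgeR adjusted p = 0.00121). The others called were RAI1 (1.31), partner of the nuclear exonuclease Rat1, AIR1 (1.23), an RNA-binding subunit of the TRAMP polyadenylation complex, the exosome nuclease DIS3 (1.06) and the exosome cap subunit RRP40 (1.06). In fits without a library, RRP6, DIS3 and RRP40 fell as low as 0.85, 0.86 and 0.85, which is under the 2-fold cutoff. Of the 13 chromatin factors and 1 helicase listed together, only the helicase gene DBP2 was called in edgeR's fit (1.12, adjusted p = 0.0177). At an adjusted p alone 2 of these 14 passed, 1 towards each cell type, beside 31.6% of all loci. Most of the set, 10 of 14, was higher in aerial cells, with a median of -0.15. Dbp2 is an RNA helicase tied to antisense transcription, and its adjusted p was 0.0521 without root replicate 1 and 0.0513 without root replicate 3. The lowest log2 fold change of DBP2 in fits without a library was 0.88.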

How the data were processed

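The authors aligned paired-end stranded reads with TopHat2 2.0.14 to R64 (SacCer3), with R64 coding loci and trimmed, de-duplicated noncoding loci as features, and used featureCounts for strand-aware counting. The values they deposited are raw counts, neither normalized nor filtered. How reads matching several loci were treated is not given in the sources used here. All 6 value columns were used, so 0 were left out, and a line that names no locus (2 to 6 counts per library) was dropped. The libraries came from 3 independent samples per cell type.

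The tests were run with edgeR 4.0.16 under R 4.3.3 (filterByExpr, TMM factors of 0.871 to 1.09, quasi-likelihood F test, Benjamini-Hochberg over all loci tested), with DESeq2 1.42.0 as an alternative, and in Python 3.11.15 with scipy 1.17.1, pandas 2.3.3 and matplotlib 3.10.9. Distances used log2 CPM with a prior of 2 counts. Standard errors are the log2 fold change divided by the root of F. The procedure was tested on simulated data. Gene symbols and positions are those of R64.

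The XUTs named are the 10 with the largest change in each direction among those called without overlap, the 5 with the highest mean CPM and the 2 on either side of the 2-fold cutoff in each direction; pairs with neighbouring numbers were named after their values were seen. Genes named are XRN1 and the called genes of the decay list, and PAN2, PAN3 and the SKI genes, added after their values were seen. Members, lists and alternatives were chosen with earlier results of these data known. Alternatives tried were DESeq2 (fold changes plain or shrunken), other scalings, other filters and cutoffs, a replicate block, summed repeated names and each library left out.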

Additional observations from a re-analysis of the deposited data

How the results depend on the processing

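The count of XUTs called (74) was 62 to 97 under the alternatives on all 6 libraries, apart from the filter of at least 10 counts in every library, which tested 416 XUTs and called 49, 27 of them higher in aerial cells. Without single libraries it was 39 to 92, with 17 to 49 higher in root and 21 to 58 higher in aerial cells. DESeq2 called 67, of which 65 were shared with edgeR, and 62 with shrunken fold changes, all shared. Decay and chromatin genes called were 20 at an adjusted p alone and 20 with a 1.5-fold cutoff, and 4 to 15 without single libraries. The median XUT log2 fold change stayed between -0.0989 and 0.085 in every fit. The differences in the XUT share and in the 3 ratios kept their sign in every alternative. Of 962 values under alternatives for 61 loci named with values (44 XUTs and 17 genes), 846 kept their direction and their side of the adjusted threshold, 105 lost significance, 5 gained it and 6 changed sign. None of the 6 was past the threshold. SKI2 was at -0.0283 and SKI8 at -0.03913 with upper quartile normalization, SKI8 at -0.01309 with library sizes alone, and without single libraries SKI2 was -0.1777 to 0.1821 and SKI8 -0.02094 to 0.07655, in both lowest without aerial replicate 3. XUT_15R-430 was at -0.2473 without aerial replicate 1 and up to 0.4816 without aerial replicate 2. The cause of these changes was not tested. Deviations of same-numbered aerial and root libraries from their group means had r = -0.142, 0.14 and -0.0440 over all loci. Aerial replicate 3 had r = 0.361 with root replicate 1 and -0.3 with root replicate 2. With 3 libraries per cell type these values cannot settle whether the numbers pair the samples. With replicate number as a block 69 XUTs (30 higher in root and 39 in aerial cells) and 12 decay and chromatin genes were called, 65 of the XUTs shared. Depth limits the 264 untested XUTs and those under 20 counts, where the median standard error was 0.41.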
